A study of Mus musculus with 6 samples.

Results

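Glucose is taken up by membrane carriers, split by the enzymes of glycolysis into pyruvate, and either released as lactate or passed through pyruvate dehydrogenase into the tricarboxylic acid (TCA) cycle of the mitochondrion, while the pentose phosphate pathway branches off early to make NADPH and ribose for nucleotides. Naive T cells burn little glucose and rely mostly on mitochondrial oxidation. Activated and effector T cells raise glucose uptake, hexokinase and lactate export as they grow and divide.

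The genes described here were listed by symbol as the core of these pathways: 4 glucose and lactate transporters, 15 glycolytic enzymes, 2 lactate dehydrogenase chains, 4 pentose phosphate enzymes, 3 genes of the pyruvate dehydrogenase step and 12 genes of the TCA cycle and the isocitrate dehydrogenases. A gene was represented by its brightest probe set that carries exactly 1 symbol in the platform annotation, and 36 of the 40 listed genes had one, among 19938 genes in all. Gapdh was named only on 25 probe sets that carry several symbols, and Gpi1, Eno1 and G6pdx were on no probe set under their own symbol, so these 4 genes are not analysed here. No filter on dim genes was used.

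RNA came from CD44-low CD8+ T cells sorted from spleen and lymph nodes of mice aged 10 weeks on the C57BL/6 background. Sanroque mice are homozygous for the san allele of Roquin, an RNA-binding repressor encoded by Rc3h1 (Roquin san/san), and wild-type mice carry the normal gene (Roquin+/+). The mutation is in the germ line, so every cell of a sanroque mouse carries it, and its effect in CD8+ T cells cannot be told apart from that of their surroundings. Each genotype had 3 arrays, which the labels call biological replicates, and all values below are log2 intensities or differences of them (log2 folds, sanroque minus wild type, with the standard error of the limma fit).

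Markers of the labelled cell type were present in both genotypes: Cd8a averaged 13.02 in wild type and 13.00 in sanroque, and Cd3g 13.06 and 12.92. All 6 measured CD8 T cell genes had log2 folds below 0 (median -0.11), 3 of them with every sanroque array below wild type, and 1, Cd3d, fell by 0.52 with an SE of 0.09 (limma, adjusted p = 0.0263). Markers of other cells moved with genotype. Of 12 measured B cell genes 7 rose and 0 fell, and of 15 myeloid genes 14 rose and 0 fell. Array medians of the B cell list were 6.87 to 8.04 in wild type and 8.80 to 9.29 in sanroque, and those of the myeloid list 6.03 to 6.62 and 8.51 to 8.90. Among their brightest genes, Lyz2 averaged 7.61 in wild type and 10.74 in sanroque, Lcn2 6.86 and 10.92, H2-Ab1 9.48 and 11.27, and Cd74 8.78 and 10.86. Of 14 measured cycling genes 9 rose and 0 fell, with array medians of 5.48 to 5.81 in wild type and 7.27 to 7.35 in sanroque. Pcna, the brightest of them, averaged 11.16 in wild type and 10.87 in sanroque. Every sanroque array of Pcna lay below wild type, and it was not called (limma, adjusted p = 0.168). Smaller lists also rose in part. Of 6 plasma cell genes 4 (Jchain, Mzb1, Xbp1 and Prdm1) rose and 0 fell, with a median log2 fold of 1.02. Sdc1 and Tnfrsf17, at 0.19 and -0.05, overlapped and were not called. Of 6 CD4 T cell genes 3 (Zbtb7b, Ctla4 and Ikzf2) rose and 0 fell, with a median log2 fold of 0.88. Cd4, Foxp3 and Cd40lg, at 0.95, 0.38 and 0.27, were not called. The 4 measured erythroid genes had a median log2 fold of 0.23 and 0 were called. The part of these cells in the results below was not tested. Some values below use a score of B cell and myeloid markers as a covariate, which can hardly be told apart from genotype. In such bulk RNA, fewer cells of a type and less RNA per cell cannot be told apart.

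In sanroque cells 2 of the 36 measured genes rose and 2 fell. The lactate exporter gene Slc16a3 and the hexokinase gene Hk2 were higher, and Pdhb of pyruvate dehydrogenase and Idh3b of the TCA cycle were lower, each by less than 1.5-fold (limma, adjusted by Benjamini and Hochberg's method over every gene, threshold 0.05). Over all 19938 genes 3.26% were called higher, 2.51% lower and 5.77% either way, and among the 9969 brighter genes (mean level at or above that of the median gene) 4.83% higher and 4.91% lower, so 2 and 2 of 36 lie near that background. Of the 36, 3 had every sanroque array above every wild-type array and 9 every one below, where 22.7% of all genes had no overlap (9.46% above, 13.2% below; 13.5% and 20.4% among the brighter genes). The median log2 fold of the 36 genes was -0.07, against -0.03 over all genes. By group the median was 0.11 for transport, 0.04 for the 12 measured glycolytic enzymes, 0.11 for the 3 measured pentose phosphate enzymes, -0.12 for lactate dehydrogenase, -0.20 for the pyruvate dehydrogenase step and -0.17 for the TCA group. The value for the pyruvate dehydrogenase step is that of Pdk1, a kinase that switches the complex off. It lies between Pdha1 at -0.18 and Pdhb at -0.52. Differences between groups were not tested. Centring each array on its median turned the glycolytic median to -0.0054, and a score of B cell and myeloid markers as a covariate turned the pentose phosphate median to -0.31.

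**Figure D1:**
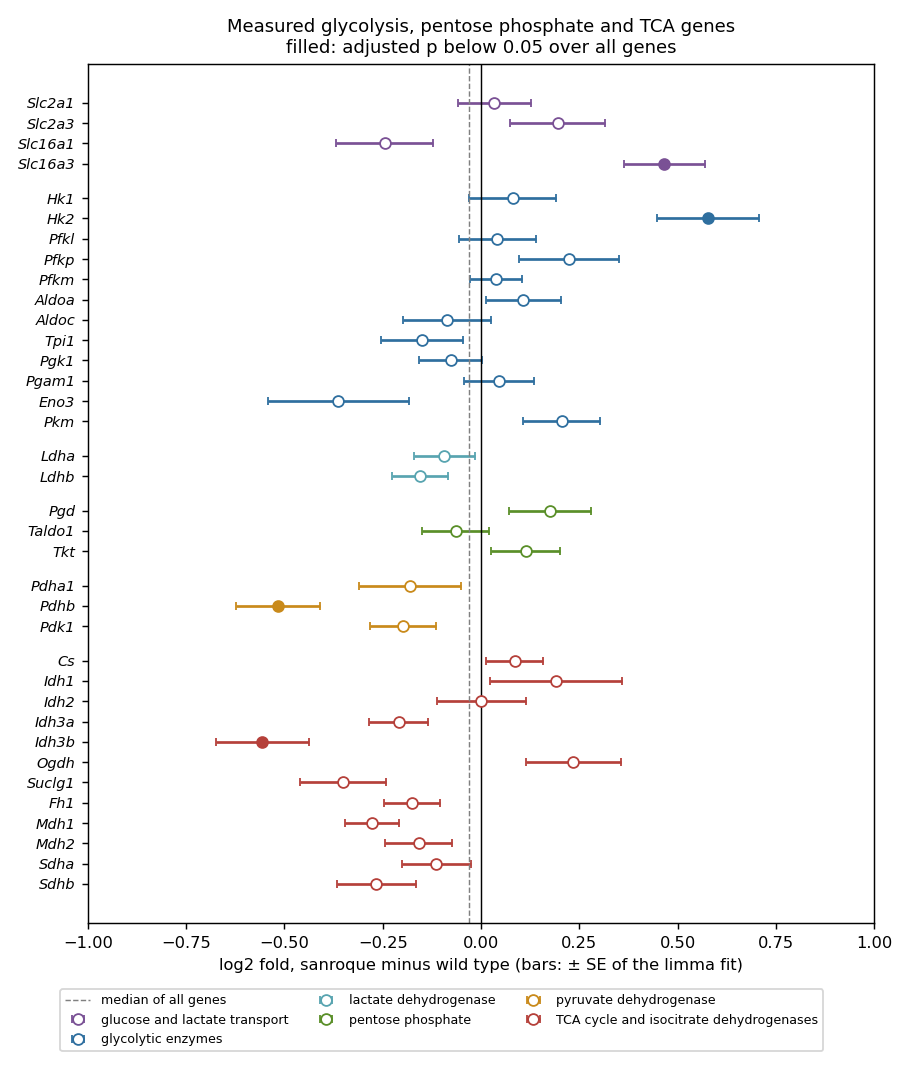
Log2 fold (sanroque minus wild type, horizontal axis) of each measured gene with its standard error, coloured by pathway group. Filled points passed the test over all genes: Slc16a3 at 0.47, Hk2 at 0.58, Pdhb at -0.52 and Idh3b at -0.56. The dashed line is the median of all genes, -0.03.

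The promoters of the 4 called genes, and of Idh3g, whose product joins that of Idh3b in the same enzyme and which also fell, are shown as the 150 bases before the RefSeq start (GRCm38.p6), since these are the genes whose RNA differed. Capitals mark matches on either strand to ACGTG, the core bound by hypoxia-inducible factor, to the CCAAT box bound by NF-Y, or to the core of ETS factors. The NRF1 motif was also searched, with 0 matches in these 5 promoters. The motifs were chosen with the values known.
Slc16a3, chr11:120948917-120949066, + strand: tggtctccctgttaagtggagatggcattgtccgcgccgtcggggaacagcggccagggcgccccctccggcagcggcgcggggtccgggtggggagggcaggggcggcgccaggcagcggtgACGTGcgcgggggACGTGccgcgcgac
Hk2, chr6:82774455-82774604, - strand: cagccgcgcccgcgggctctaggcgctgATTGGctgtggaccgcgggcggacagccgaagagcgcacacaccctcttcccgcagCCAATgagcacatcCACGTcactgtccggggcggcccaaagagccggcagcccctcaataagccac
Pdhb, chr14:8172993-8173142, - strand: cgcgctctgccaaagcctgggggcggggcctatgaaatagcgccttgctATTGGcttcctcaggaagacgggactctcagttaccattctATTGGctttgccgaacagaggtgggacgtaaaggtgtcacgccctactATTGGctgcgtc
Idh3b, chr2:130284452-130284601, - strand: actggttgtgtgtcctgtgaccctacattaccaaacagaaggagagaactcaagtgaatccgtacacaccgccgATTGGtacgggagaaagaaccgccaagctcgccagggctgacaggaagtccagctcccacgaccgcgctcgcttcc
Idh3g, chrX:73786898-73787047, - strand: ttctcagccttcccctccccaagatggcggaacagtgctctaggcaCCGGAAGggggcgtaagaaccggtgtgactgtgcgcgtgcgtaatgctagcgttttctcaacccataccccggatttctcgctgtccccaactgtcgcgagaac

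The ETS core searched was CCGGAAG, and the core of hypoxia-inducible factor also lies within the E-box, CACGTG, searched as well. The 2 genes that rose each carry ACGTG in the printed stretch, with 2 matches in Slc16a3 and 1 in Hk2, and the 3 that fell carry none there. Over the full windows of 300 bases, from 250 before to 50 after the start, Hk2 has 2 matches, Pdhb and Idh3g have 1 each and Idh3b has 0. ACGTG was in 19.6% of all 32851 promoter windows and in 45.1% of the 51 windows of measured members, and 34 of the 36 measured members had a window. CCAAT was in 37.4% of all windows, in 40.0% of the 25 windows of the glycolytic enzymes and in 82.4% of the 17 windows of the TCA group, which belong to 11 genes, 9 of them with a match. Pdhb has 3 CCAAT matches, Hk2 has 2 and Idh3b has 1. The E-box was in 7.15% of all windows and 11.8% of those of measured members, CCGGAAG in 8.86% and 5.88%, and the NRF1 motif in 4.6% and 5.88%. Windows of a gene with several starts can overlap, and a match of letters is no evidence of binding.

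Among the carriers, Slc16a3 (probe set 10383502) encodes MCT4, a monocarboxylate transporter known for exporting lactate from glycolytic cells. Replicates 1 to 3, the order used throughout, read 6.65, 6.75 and 6.92 for wild type against 7.41, 7.18 and 7.15 for sanroque. Every sanroque array lay above every wild-type array, and the level rose 1.38-fold, from 6.78 ± 0.14 to 7.24 ± 0.14 (mean ± SD of 3 arrays each, n = 3; a log2 fold of 0.47 ± 0.10, limma, adjusted p = 0.0471). Its relative Slc16a1, which encodes MCT1, read 8.96, 9.22 and 8.94 on the wild-type arrays against 8.64, 8.73 and 9.02 on the sanroque arrays. The third sanroque array lay within the wild-type range and the other two below it, at a log2 fold of -0.24 ± 0.12 (limma, adjusted p = 0.365). The fold of Slc16a3 exceeded that of Slc16a1 by 0.71, and the per-array differences of the pair did not overlap between genotypes (exact permutation test, two-sided, p = 0.1, the smallest that 3 against 3 allows; adjusted p = 0.6 over 9 isozyme pairs).

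The glucose carrier genes did not pass. Slc2a1, the carrier that activated T cells are known to raise, had a log2 fold of 0.03 ± 0.09, which turned to -0.016 with each array centred on its median, -0.097 with array weights and -0.042 without sanroque replicate 3. Slc2a3, the high-affinity carrier also found in T cells, had one of 0.20 ± 0.12. Both sets of arrays overlapped between genotypes.

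Hexokinase traps glucose in the cell by phosphorylating it. The inducible form Hk2 (probe set 10545588) read 5.73, 5.57 and 5.81 on the wild-type arrays against 6.02, 6.49 and 6.34 on the sanroque arrays. The groups did not overlap, with sanroque replicate 1 nearest to wild type. The level rose 1.49-fold, from 5.70 ± 0.12 to 6.28 ± 0.24 (mean ± SD of 3 arrays each, n = 3; a log2 fold of 0.58 ± 0.13, limma, adjusted p = 0.0481). This lies low on the scale of the arrays, where background can shrink a fold. Adding 16 to each intensity before log2 gave 0.46, which did not pass (limma, adjusted p = 0.0728). With that offset the brighter called genes Slc16a3, Pdhb and Idh3b did not pass either (limma, adjusted p = 0.0596, 0.0517 and 0.0574). The housekeeping form Hk1 had a log2 fold of 0.08 ± 0.11, with overlapping arrays. That probe set is tied to the gene through a single accession and may not read Hk1. The dimmer Hk1 probe set, tied to it through RefSeq transcripts, read 8.76, 8.77 and 8.78 on the wild-type arrays against 8.86, 8.96 and 9.12 on the sanroque arrays, a log2 fold of 0.21 with no overlap that did not pass (limma, adjusted p = 0.21). Hk2 exceeded Hk1 in log2 fold by 0.50 with the brighter Hk1 probe set (exact permutation p = 0.2) and by 0.37 with the other (exact permutation p = 0.1, the smallest possible).

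The committing step of glycolysis is phosphofructokinase, built from the Pfkl, Pfkp and Pfkm chains. Their log2 folds were 0.04 ± 0.10, 0.22 ± 0.13 and 0.04 ± 0.07, and 0 of the 3 passed. The small folds of Pfkl and Pfkm turned to -0.0072 and -0.011 with each array centred on its median. The downstream aldolase, triose phosphate isomerase, phosphoglycerate kinase and phosphoglycerate mutase genes Aldoa, Aldoc, Tpi1, Pgk1 and Pgam1 lay between -0.15 and 0.11, and 0 passed. The sign of Aldoc and Pgam1 changed without wild type replicate 3, as did that of Hk1. Pgk1 and Pgam1 each had another probe set with the same values as the one used, and these genes have processed copies in the genome, so their probe sets may read more than 1 locus. Eno3, the muscle form of enolase, was the lowest glycolytic member with a log2 fold of -0.36 ± 0.18, but the level, 7.50 ± 0.10 for wild type against 7.13 ± 0.38 for sanroque (SD, n = 3), overlapped and missed the threshold (limma, adjusted p = 0.352).

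Pkm, which encodes the pyruvate kinase that closes glycolysis in most tissues, read 10.43, 10.28 and 10.49 on the wild-type arrays against 10.44, 10.71 and 10.66 on the sanroque arrays. Sanroque replicate 1 lay within the wild-type range and the others above it. The log2 fold was 0.21 ± 0.10 (limma, adjusted p = 0.332), and 0.29 on a dimmer probe set of the gene. There wild type read 10.14, 10.1 and 10.33 and sanroque 10.34, 10.6 and 10.49, with no overlap through a narrow gap. That probe set did not pass either (limma). Lactate dehydrogenase, which turns pyruvate into lactate, went slightly the other way. Ldha read 12.04, 11.93 and 11.96 on the wild-type arrays against 11.82, 11.83 and 12.01 on the sanroque arrays, overlapping through sanroque replicate 3. Ldhb read 6.53, 6.57 and 6.43 on the wild-type arrays against 6.40, 6.37 and 6.29 on the sanroque arrays, with no overlap. The log2 folds were -0.09 ± 0.08 for Ldha and -0.16 ± 0.07 for Ldhb (limma, adjusted p = 0.666 and 0.301), so neither passed. A dimmer Ldhb probe set had a log2 fold of -0.21. On the brightest probe sets, 1 of the 12 measured glycolytic enzymes had every sanroque array above wild type and 0 every one below. Over all genes 9.46% and 13.2% did.

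**Figure D2:**
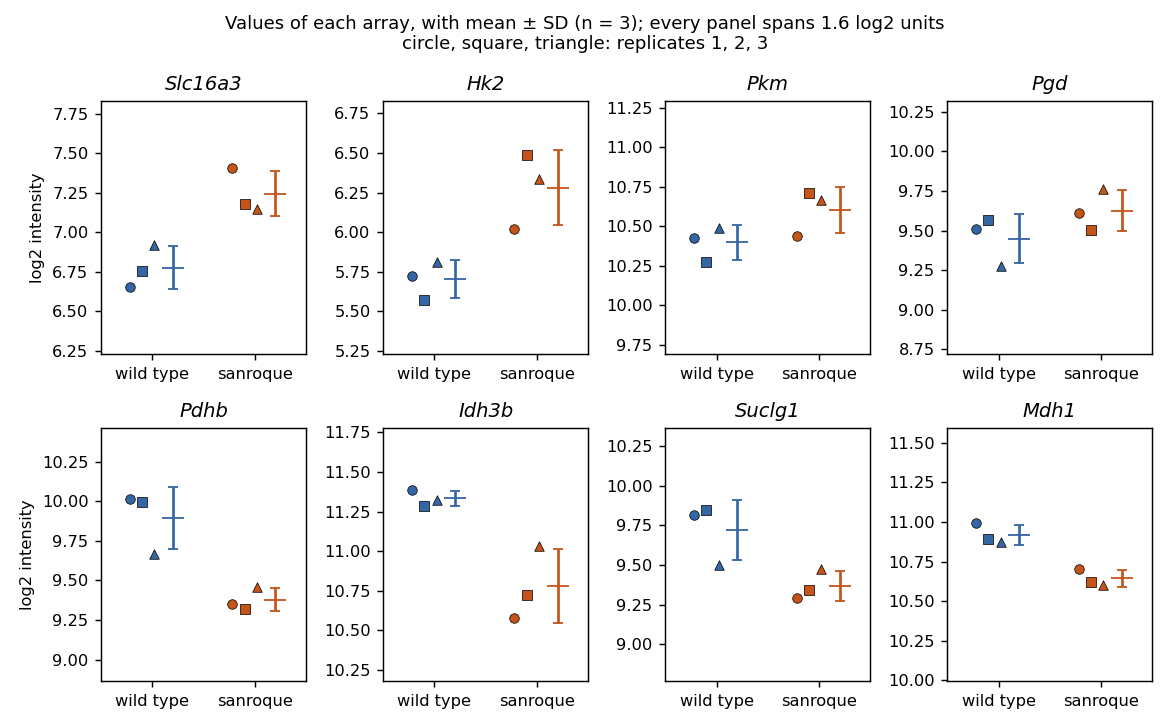
Log2 intensity of each array for 8 genes, with circles, squares and triangles for replicates 1 to 3 and bars for mean ± SD (n = 3); every panel spans the same range. Slc16a3 and Hk2 stand higher in sanroque and Pdhb, Idh3b, Suclg1 and Mdh1 lower with no overlap. Pkm and Pgd overlap, though a dimmer probe set of Pkm, not shown, does not.

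None of the 3 measured pentose phosphate enzymes passed (limma; 0 had an unadjusted p under 0.05), and all 3 overlapped between genotypes. Pgd, the phosphogluconate dehydrogenase of the NADPH-making branch, read 9.51, 9.56 and 9.28 on the wild-type arrays against 9.61, 9.50 and 9.76 on the sanroque arrays. Tkt, the transketolase that links the pathway back to glycolysis, read 9.14, 9.19 and 9.13 on the wild-type arrays against 9.35, 9.36 and 9.10 on the sanroque arrays. In Pgd the genotypes overlapped through sanroque replicate 2, and in Tkt the third sanroque array was the lowest of all. The log2 folds were 0.18 ± 0.10 and 0.11 ± 0.09 (limma, adjusted p = 0.474 and 0.625), and that of Taldo1, the transaldolase, was -0.06 ± 0.09. With the marker score as a covariate, which can hardly be told apart from genotype, Pgd turned to -0.42 ± 0.33 and did not pass. Of 10 other genes around the pathway 1 fell and 0 rose, where 2.51% of all genes fell and 3.26% rose. It was Prps1, whose product makes the activated ribose of nucleotide synthesis, at -0.60 ± 0.12 (limma, adjusted p = 0.0389), from 10.54, 10.56 and 10.40 in wild type to 9.71, 9.81 and 10.17 in sanroque. Its paralog Prps2 had a log2 fold of 0.02 ± 0.13. Of the other pathway genes 3 of 93 fell in all, and 0 did on dropping replicate 1 or 2 of either genotype.

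At the entry to the mitochondrion, Pdhb (probe set 10417538) encodes the beta chain of the first pyruvate dehydrogenase enzyme. It read 10.01, 10.00 and 9.67 on the wild-type arrays against 9.35, 9.32 and 9.46 on the sanroque arrays. All sanroque arrays lay below wild type, of which replicate 3 was the lowest. The level fell by 0.52 on the log2 scale, from 9.89 ± 0.20 to 9.38 ± 0.07 (SD, n = 3 each; SE 0.11, limma, adjusted p = 0.0394), which is 1.43-fold lower. Its partner chain Pdha1 had a log2 fold of -0.18 ± 0.13 and overlapped. Pdk1, a kinase that switches the complex off, read 9.95, 10.14 and 10.12 on the wild-type arrays against 9.95, 9.77 and 9.90 on the sanroque arrays, which only just fail to meet. Its log2 fold of -0.20 ± 0.08 did not pass (limma, adjusted p = 0.258). Of 11 other measured genes of pyruvate entry 0 passed (limma; 4 had an unadjusted p under 0.05, as 3766 of all 19938 genes did, and by the test without moderation 0 of the other pathway genes passed). The smallest p was that of Pdp1, the phosphatase that switches the complex back on, at -0.45 ± 0.11 (limma, adjusted p = 0.0577). All 5 chains of the complex measured, Pdha1, Pdhb, Dlat, Dld and Pdhx, had log2 folds below 0, between -0.52 and -0.05, and the arrays of 1 of them did not overlap. Over all genes 61.5% of log2 folds were below 0 and 22.7% had no overlap.

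In the TCA cycle, IDH3 oxidises isocitrate and is made of the products of Idh3a, Idh3b and Idh3g. Idh3b (probe set 10487629) read 11.38, 11.29 and 11.32 on the wild-type arrays against 10.57, 10.72 and 11.03 on the sanroque arrays. The wild-type arrays lay close together and the sanroque arrays below them, spread over a wider range with replicate 3 nearest. The level fell by 0.56 on the log2 scale, from 11.33 ± 0.05 to 10.78 ± 0.23 (SD, n = 3 each; SE 0.12, limma, adjusted p = 0.042), or 1.47-fold lower, and 1.26% of all genes had a lower log2 fold. Idh3g, which is not among the listed genes, read 10.79, 10.75 and 10.76 on the wild-type arrays against 10.16, 10.13 and 10.38 on the sanroque arrays and fell by 0.55 (SE 0.08, limma, adjusted p = 0.0162). Idh3a, the catalytic chain, had a log2 fold of -0.21 ± 0.07 with no overlap and did not pass (limma, adjusted p = 0.172).

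The NADP-dependent isocitrate dehydrogenases did not pass, and they were not tested against the IDH3 genes. Idh2, the mitochondrial enzyme, had a log2 fold of 0.00 ± 0.11, and Idh1, its cytosolic counterpart, one of 0.19 ± 0.17, both with overlapping arrays. Idh1 turned to -1.03 ± 0.43 with the marker score as a covariate, which did not pass and which can hardly be told apart from genotype. The sign of Idh2 changed without wild type replicate 1, wild type replicate 2 or sanroque replicate 1.

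The listed genes of the later steps were Suclg1, Sdha, Sdhb, Fh1 and Mdh2, taken here with the cytosolic Mdh1, and 0 passed (limma). Of these, 4 had an unadjusted p under 0.05, against 3766 of all 19938 genes. The same 4, Suclg1, Mdh1, Sdhb and Fh1, had every sanroque array below wild type. The shares wholly below were 13.2% of all genes and 20.4% of the brighter ones. Suclg1, a chain of succinyl-CoA synthetase, read 9.82, 9.85 and 9.50 on the wild-type arrays against 9.29, 9.34 and 9.47 on the sanroque arrays (log2 fold -0.35 ± 0.11, limma, adjusted p = 0.122). Wild-type replicate 3 and sanroque replicate 3 nearly met. Mdh1, the cytosolic malate dehydrogenase of the malate-aspartate shuttle, was named after its values were seen. It read 10.99, 10.89 and 10.87 on the wild-type arrays against 10.71, 10.62 and 10.60 on the sanroque arrays with no overlap, at a log2 fold of -0.28 ± 0.07 (limma, adjusted p = 0.0662). The succinate dehydrogenase chain Sdhb and the fumarase gene Fh1 also had every sanroque array below wild type, with log2 folds of -0.27 ± 0.10 and -0.18 ± 0.07, and neither passed. Sdha and Mdh2, at -0.11 ± 0.09 and -0.16 ± 0.09, overlapped.

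Besides Idh1 and Idh2, the exceptions were Cs, the citrate synthase that opens the cycle, with a log2 fold of 0.09 ± 0.07, and Ogdh, the first enzyme of the oxoglutarate dehydrogenase complex. Ogdh read 10.38, 10.54 and 10.52 on the wild-type arrays against 10.57, 10.60 and 10.98 on the sanroque arrays. It was the only TCA member with every sanroque array above wild type, through a narrow gap, and did not pass (log2 fold 0.23 ± 0.12, limma, adjusted p = 0.378).

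Of the 12 TCA and isocitrate dehydrogenase members, 6 had every sanroque array below every wild-type array, 1 every one above, and 5 overlapped. The cytosolic Mdh1 is among the 6. Over all genes 13.2% lay wholly below, and 20.4% of the brighter ones. Of 12 other measured TCA genes 5 lay wholly below and 0 above, and Idh3g alone passed. Regrouped by enzyme after the values were seen, all 3 chains of IDH3, all 4 of succinate dehydrogenase and all 3 of succinyl-CoA synthetase had log2 folds below 0, with medians of -0.55, -0.27 and -0.35. The share of all log2 folds below 0 was 61.5%.

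**Figure D3:**
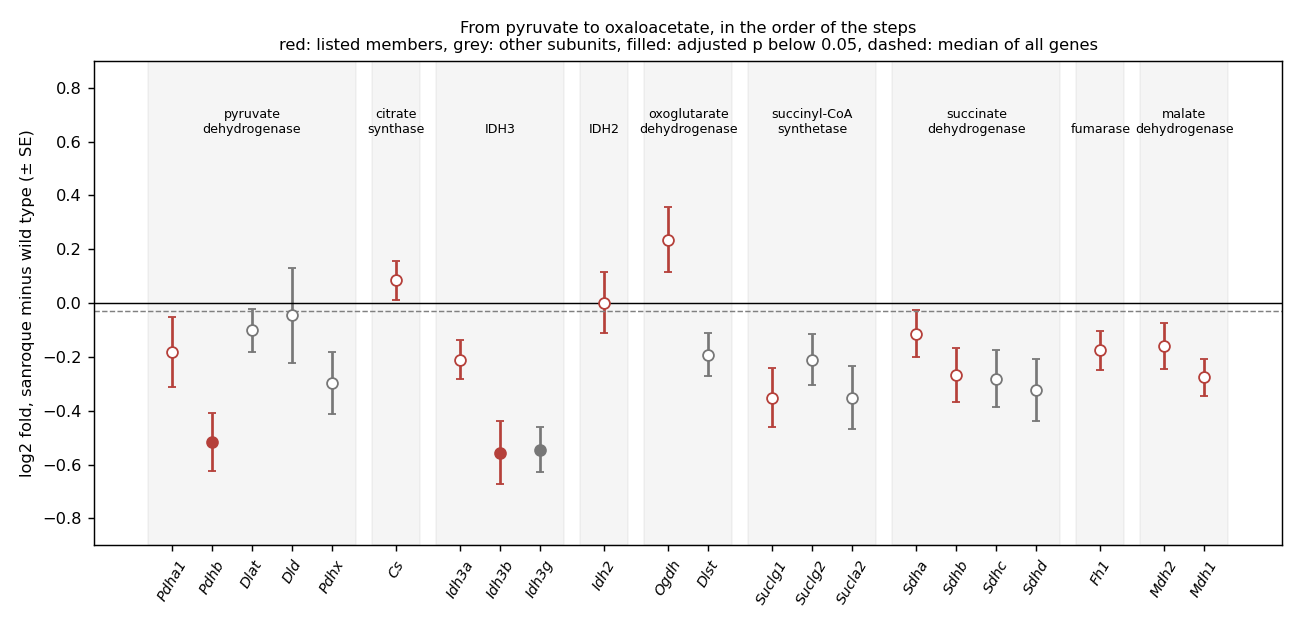
Log2 fold (sanroque minus wild type, vertical axis) with its standard error for each chain from pyruvate dehydrogenase to malate dehydrogenase, in the order of the steps; red points are listed genes, grey points other subunits, filled points passed the test. Most points lie below the dashed median of all genes, -0.03, and Pdhb, Idh3b and Idh3g are the filled ones; Cs, Idh2 and Ogdh lie above it.

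The arrays did not share these levels evenly. As the median deviation of the TCA members from each gene's mean over 6 arrays, wild-type replicates 1 to 3 stood at 0.08, 0.10 and 0.07 and sanroque replicates at -0.14, -0.12 and -0.02. For the pyruvate dehydrogenase step, a group that includes the kinase gene Pdk1, the values were 0.10, 0.17 and 0.03, and -0.23, -0.25 and -0.07. Sanroque replicate 3 was nearest to wild type in both groups, while its B cell list median, 9.29, was the highest of all arrays and its myeloid one, 8.69, lay between those of the other sanroque arrays. Within wild type, replicate 2 had the highest B cell and myeloid list medians, 8.04 and 6.62, and also the highest TCA and pyruvate dehydrogenase medians, on a single array; the part of other cells in these levels was not tested.

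The 4 calls lie close to the threshold, with adjusted p-values between 0.0394 and 0.0481, and rest on the full set of arrays. Slc16a3 passed in 1 of the 6 fits that leave out an array (without wild type replicate 3), Hk2 in 1 (without sanroque replicate 1), Pdhb in 2 (on dropping the third array of either genotype) and Idh3b in 1 (without sanroque replicate 3). With a score of B cell and myeloid markers as a covariate, 0 members and 0 of all genes passed (limma), and the log2 folds were 0.50 for Slc16a3, 1.31 for Hk2, -1.01 for Pdhb and -0.49 for Idh3b. That score is -1.35 to -0.51 in wild type and 0.82 to 1.15 in sanroque, so it can hardly be told apart from genotype.

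**Figure D4:**
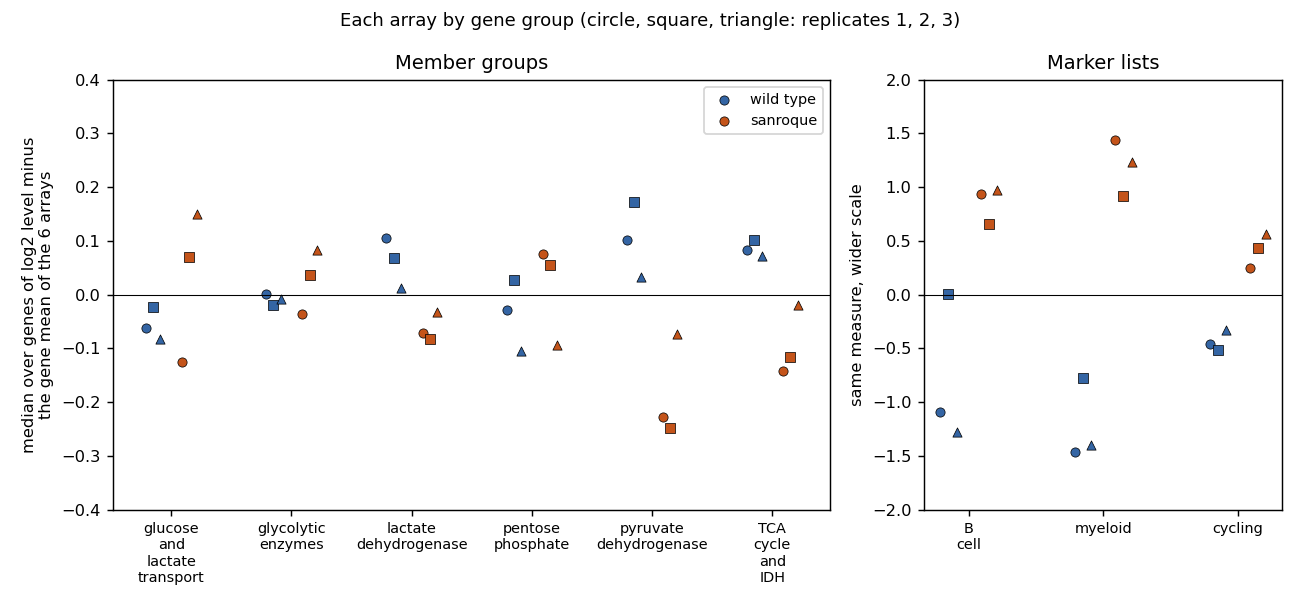
Median over each gene group of the log2 level minus the gene's mean over the 6 arrays, for the member groups (left) and marker lists (right, wider scale); circles, squares and triangles are replicates 1 to 3. Wild-type and sanroque arrays separate for the TCA, pyruvate dehydrogenase and lactate dehydrogenase (2 genes) groups, with sanroque replicate 3 nearest to wild type. They mix for the transport, glycolytic and pentose phosphate groups.

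Among other genes of sugar entry and glycolysis, 2 of 22 measured rose and 0 fell, against 3.26% and 2.51% of all genes. Over all the other pathway genes, 4 of 93 rose, and 0 or 1 did on dropping any wild-type array or the second sanroque array. Hk3, a hexokinase known mainly from myeloid cells, read 5.90, 5.51 and 5.48 on the wild-type arrays against 6.42, 6.48 and 6.48 on the sanroque arrays (log2 fold 0.83 ± 0.12, limma, adjusted p = 0.0132). The myeloid list had a median log2 fold of 2.43 on the same arrays. Pfkfb3, whose product makes the activator of phosphofructokinase, rose from 7.77 ± 0.05 to 8.10 ± 0.08 (mean ± SD of 3 arrays each, n = 3; a log2 fold of 0.33 ± 0.07, limma, adjusted p = 0.0443). Both genes separated the genotypes without overlap.

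Of 11 genes of the redox shuttles and citrate export 1 rose and 0 fell (3.26% and 2.51% of all genes). Got2, the mitochondrial aspartate aminotransferase of the malate-aspartate shuttle, read 9.15, 9.23 and 9.15 on the wild-type arrays against 9.43, 9.63 and 9.60 on the sanroque arrays (log2 fold 0.38 ± 0.08, limma, adjusted p = 0.0385), the opposite direction to its shuttle partner Mdh1. Of 27 regulators 1 rose and 1 fell, near the 3.26% and 2.51% of all genes. Akt1, a kinase that promotes glucose use, rose by 0.28 ± 0.06, and Rheb, the activator of mTORC1, fell by 0.40 with an SE of 0.09 (limma, adjusted p = 0.0491 and 0.043). Hif1a and Myc, the transcription factors best known for driving glycolytic genes, had log2 folds of 0.47 ± 0.13 and -0.10 ± 0.09 and did not pass (limma, adjusted p = 0.0898 and 0.692). In Hif1a every sanroque array lay above wild type, and in Myc the arrays overlapped.

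Among the other 7 isozyme pairs compared, differences in log2 fold ranged from -0.19 to 0.18 and every pair overlapped between genotypes (exact permutation p between 0.3 and 1, adjusted p between 0.6 and 1). They were Pfkp and Pfkm against Pfkl, Aldoc against Aldoa, Ldhb against Ldha, Slc2a3 against Slc2a1, Idh2 against Idh1 and Mdh2 against Mdh1. With 3 arrays a side this test cannot go below 0.1, so it does not show that the isozymes changed alike.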

How the data were processed

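The authors deposited linear intensities of 35399 probe sets for each of 6 Affymetrix arrays, hybridised with biotin-labelled cRNA (per the labels). The submitters' processing notes name Partek without saying what it did. How background, summarization and scaling were handled is not given in the sources used here. At the quantiles compared, arrays lay within 0.14 of each other on the log2 scale, and log2 values were taken without further normalization. Having 3 arrays per genotype limits the precision.

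A single symbol was given for 21789 probe sets, several for 1621 and none for 11989. Of 19938 genes, 19856 matched the GRCm38.p6 gene table. Genotypes were compared with limma 3.58.1 in R 4.3.3 (lmFit, eBayes, two-sided, Benjamini-Hochberg over all genes, threshold 0.05), tested on simulated data. Isozyme pairs were compared by exact permutation over arrays. Values of every array are given for called members, for members that do not overlap with a log2 fold of at least 0.3 in size, and for the 2 with the smallest p in groups with fewer. Of other pathway genes, those called or with the smallest p are named. Of markers, some of the brightest, Cd3d, which was called, and all plasma cell and CD4 T cell genes are named. Others (Eno3, Mdh1, Ogdh, Prps2, Hif1a, Myc) were chosen after their values were seen. Members and lists were chosen with earlier results of these data known. Alternatives changed the probe set, filter, normalization, log offset, variance model, array weights, pairing, covariate or arrays. Promoter sequences are from RefSeq. Figures used matplotlib 3.10.9.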

Additional observations from a re-analysis of the deposited data

How the results depend on the processing

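Of 684 refits of member log2 folds, 602 kept direction and side of the threshold, 45 lost the call, 12 gained one and 25 changed sign. Only the 4 called members could lose a call. Of 19 alternatives for each, Slc16a3 passed in 6, Hk2 in 8, Pdhb in 9 and Idh3b in 8. All 4 called members kept their direction throughout. Members called higher, 2 in the reported fit, numbered 1 with eBayes trend, with or without robust, and 0 with median centring, an offset of 16, ANOVA without moderation, the replicate block, without both wild type 2 and sanroque 1, or with the other-cell covariate; leaving out an array gave 0 to 1. Members called lower, also 2, numbered 11 with array weights and 1 with the offset, which was neither Pdhb nor Idh3b. They numbered 0 with median centring, ANOVA, the replicate block, without both arrays, or with the covariate. Leaving out an array gave 0 to 3.

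All genes called, 1151 (650 higher, 501 lower), numbered 631 (378 and 253) with median centring, 4 (0 and 4) by ANOVA, 4733 (1998 and 2735) with array weights, 301 (271 and 30) with the replicate block, 353 (326 and 27) without both arrays and 0 with the covariate. Leaving out an array gave 218 to 1315 genes, 196 to 587 higher and 22 to 728 lower. Other pathway genes called higher, 4, numbered 9 with quantile normalization, 1 with median centring, 16 with array weights, and 0 by ANOVA, with the block, without both arrays or with the covariate, and 0 to 4 on leaving out an array; those called lower, 3, numbered 1 with median centring, 15 with array weights, 0 by ANOVA, with the block, without both arrays or with the covariate, and 0 to 4 on leaving out an array.

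The lactate dehydrogenase median moved to -0.17 with median centring or array weights and -0.19 with the covariate. With the covariate the pyruvate dehydrogenase median was -0.68 and the pentose phosphate median -0.31; leaving out an array gave -0.33 to -0.15 for the former. With it signs changed to -0.10 for Pfkl, -0.36 for Hk1, 0.76 for Aldoc, -0.048 for Slc2a3, -0.42 for Pgd, -1.03 for Idh1, -0.11 for Ogdh, 0.015 for Mdh2 and -0.014 for Idh2. Median centring changed Slc2a1 to -0.016, Pfkl to -0.0072, Pfkm to -0.011, Pgam1 to -0.0035 and Idh2 to -0.048, array weights Slc2a1 to -0.097 and Pgam1 to -0.11, and leaving out both arrays Idh2 to -0.14. Leaving out an array changed signs within -0.042 to 0.092 for Slc2a1, -0.0074 to 0.17 for Hk1, -0.034 to 0.13 for Pfkl, -0.20 to 0.021 for Aldoc, -0.017 to 0.13 for Pgam1 and -0.11 to 0.074 for Idh2. The differences of log2 folds ranged from -0.081 to 0.052 for Pfkm minus Pfkl, -0.12 to 0.028 for Ldhb minus Ldha and -0.36 to 0.0005983 for Idh2 minus Idh1. The causes were not tested.

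The array titles give replicate numbers and do not say whether same-numbered arrays were paired. The correlations of their deviations were -0.05, -0.16 and -0.36. Deviations from a mean of 3 arrays are tied to each other, so these values cannot decide it. The replicate block, which fits more terms to the same 6 arrays, called 0 members and cannot decide it either. The probe set with the most accessions, an alternative chosen after seeing the data, called the same numbers of members.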
